A study of Homo sapiens with 12 samples.

Results

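Nuclear pore complexes are the channels of the nuclear envelope, and the transport receptors are the carriers that move through them. This account follows the mRNAs of both. Members were chosen by gene symbol: NUP, IPO, XPO, KPNA, KPNB or TNPO followed by a number, or TPR, RANBP2, POM121, NDC1, SEC13, SEH1L, AAAS or CSE1L. Of 58 matching symbols among 19775 genes on the array, 2 pseudogenes were left out, which gave 56 members. There were 53 protein-coding members, measured by 153 of the 54675 probe sets, and 3 non-coding neighbours (IPO9-AS1, NUP133-DT and NUP50-DT). Each gene was read through its probe set with the highest mean, and a gene was tested if it reached a log2 intensity of 6 in at least 4 of the 12 arrays. That level was passed by 51 of the 53 protein-coding members, 29 of the pore and 22 receptors, among 10157 genes tested. IPO11 (mean log2 intensity 3.29) and NUP210L (2.84) stayed below it. The dimmest members that reached it in enough arrays had means of 5.77 (NUP62CL), 5.78 (KPNA5), 5.89 (NUP210) and 5.90 (POM121).

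The RNA came from MCF10A cells, a mammary epithelial line, on 12 oligonucleotide arrays. Cells were WT or carried a doxycycline-inducible short hairpin RNA against eIF4G1 (labelled 4GKD, here the knockdown), and they were mock-treated or irradiated with 10 Gy from a linear accelerator. Each of these 4 conditions gave 3 arrays: total RNA (Total), light polysomes (LMW) and heavy polysomes (HMW). The labels give 1 to 3 ribosomes for LMW and 4 or more for HMW, stated for the WT mock pools, and do not give the time after irradiation or whether WT cells carried a hairpin or received doxycycline. Hairpin, drug and loss of eIF4G1 therefore cannot be told apart. No condition was replicated and nothing says that the 4 conditions are more than 1 culture each, so p-values measure the spread between these arrays only. In such bulk RNA, fewer cells holding an mRNA and less of it per cell cannot be told apart.

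The pore is built in layers. A Y-shaped subcomplex forms outer rings on each face, an inner ring lines the membrane with a membrane ring of spanning proteins, and central channel proteins with disordered phenylalanine-glycine repeats form the barrier. Filaments face the cytoplasm, and a basket faces the nucleus. Importins carry proteins inwards, exportins carry proteins and some RNAs outwards, and the GTPase Ran sets the direction. eIF4G1 is a scaffold that joins the mRNA cap to the small ribosomal subunit, and an mRNA that carries more ribosomes sediments deeper in the gradient.

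EIF4G1 itself, the target of the hairpin, read 15.9% and 20.4% of the WT intensity in Total of the knockdown (mock and 10 Gy), 26.8% and 23.5% in LMW and 6.36% and 9.43% in HMW. Median intensities of the 12 arrays lay between 22.6 and 24.4. The basal epithelial list was planned with KRT17, KRT6A and TP63 too, which were not read. Its 6 markers read here were KRT5, KRT14, CDH3, LAMB3, EPCAM and CDH1. All 6 were tested, with a mean log2 intensity between 9.58 and 12.2 over the arrays. Luminal markers averaged 6.85 to 7.73 (4 of 6 tested), fibroblast markers 5.13 to 6.39 (3 of 5 tested), and blood and endothelial markers 3.63 to 4.16 (0 of 4 tested). Genes within a list differed widely. Luminal KRT18 read 11.8 to 13.8 and PGR 2.66 to 3.36, and fibroblast DCN 5.81 to 10.5 and COL1A2 3.15 to 4.26. Of the basal list, KRT5 read 11.7 to 13.8 and CDH1 4.58 to 11.5. Below, values are log2 intensities, differences are on the log2 scale (1 is 2-fold) with their standard error (SE), and 4 values in a row are always WT mock, WT 10 Gy, knockdown mock and knockdown 10 Gy. The values are relative to the other RNA on the same array, and differences in level between genes are not results, since probe sets differ in brightness. The highest mean served only to choose which probe set of a gene, and which member of a role, to show.

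Heavy polysomes were compared with light polysomes over the 4 matched pairs (limma with the condition as a block, Benjamini-Hochberg adjusted p below 0.05 over all genes). Of the 51 members, 24 were higher in HMW, 3 were lower and 24 were not called. Of all 10157 genes, 19.6% were called higher and 21.1% lower. The median difference was 0.67 over the members and -0.06 over all genes. HMW arrays lay wholly above LMW arrays for 18 members and wholly below for 0, where 12% of all genes did not overlap in either direction. By role, 3 of 3 nuclear basket members were higher, 3 of 5 of the cytoplasmic face, 3 of 5 of the inner ring, 3 of 8 of the Y complex, 1 of 3 of the central channel and 0 of 3 of the membrane ring. Among receptors, 3 of 6 importin alpha, 5 of 10 importin beta and transportin, and 3 of 6 exportin mRNAs were higher. The 3 lower ones were SEC13, IPO13 and XPO6. Without the WT mock pair 13 members were called, and without the condition block 4. The shares of all genes under these changes are not given here, so the counts do not set members apart. A single fit over all 12 arrays, which takes 1 spread per gene over the 3 preparations, called 33 (41.4% of all genes).

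TPR, the scaffold of the nuclear basket, had the largest difference. In LMW it read 5.72, 6.20, 7.18 and 7.55. In HMW it read 8.34, 9.35, 10.18 and 10.50. Every HMW array was thus above every LMW array, and in both pools the knockdown arrays were the higher pair. Total stood at 9.89, 9.80, 9.52 and 9.54. HMW exceeded LMW by 2.93 (SE 0.141, 7.62-fold, higher in 4 of 4 pairs, limma adjusted p = 0.000309).

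RANBP2, the large SUMO ligase and filament protein of the cytoplasmic face, behaved like TPR in these pools. Its LMW values were 5.94, 7.11, 7.83 and 8.27 and its HMW values 8.90, 9.27, 10.30 and 10.44, with no overlap. Its Total values were 10.00, 9.94, 9.80 and 10.06. The HMW excess was 2.44 (SE 0.173, 4 of 4 pairs, limma adjusted p = 0.000598). All 3 other RANBP2 probe sets past the filter gave 2.48 to 2.71. RANBP2 has near-identical RGPD copies in the genome, so its signal may hold theirs.

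NUP205, an inner ring scaffold, read 8.65, 8.38, 9.69 and 9.37 in LMW and 11.27, 10.78, 11.07 and 10.71 in HMW. Again the pools did not overlap, while the HMW minus LMW difference was larger in both WT pairs (2.62 and 2.40) than in both knockdown pairs (1.38 and 1.33). Its Total values were 9.85, 9.65, 9.50 and 9.38. The mean difference was 1.93 (SE 0.249, limma adjusted p = 0.00353).

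Other members called higher were spread over the layers of the pore. In the Y complex, NUP160 was higher by 1.84 (SE 0.204), NUP107 by 1.78 (SE 0.316) and NUP133 by 1.45 (SE 0.292), with limma adjusted p of 0.0023, 0.00666 and 0.00936. In the inner ring, NUP155 was higher by 1.52 and NUP188 by 1.29. On the cytoplasmic face, NUP98, which also binds the mRNA export factor RAE1, was higher by 1.63, and NUP214 by 1.20. NUP153 of the basket was higher by 1.42. Of 39 other probe sets of called members past the filter, 36 had the same sign. The 3 that did not were a probe set each of NUP153 (-0.15), NUP160 (-0.16) and NUP214 (-0.38), all of lower mean level.

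NUP153, which also binds importins at the basket, read 8.99, 9.09, 9.37 and 9.20 in LMW, 10.59, 10.90, 10.58 and 10.26 in HMW, and 10.00, 9.87, 9.44 and 9.33 in Total. Its 4 LMW arrays were low and did not overlap HMW. NUP88 of the cytoplasmic face, which binds NUP214, read 8.67, 8.43, 9.99 and 9.79 in LMW, 9.75, 9.82, 10.07 and 9.99 in HMW, and 8.998, 8.74, 9.37 and 9.12 in Total. Here the WT pairs differed by 1.08 and 1.40 and the knockdown pairs by 0.07 and 0.20, and the mean of 0.69 (SE 0.244) was not called (limma adjusted p = 0.0599).

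SEC13, a small Y complex subunit shared with the COPII vesicle coat, was lower in HMW. It read 12.24, 11.93, 12.14 and 12.06 in LMW, 12.12, 11.66, 11.57 and 11.52 in HMW and 11.40, 11.32, 11.39 and 11.21 in Total. The 2 pools overlapped, and the difference of -0.37 (SE 0.118) was negative in 4 of 4 pairs (limma adjusted p = 0.0422).

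IPO13, a receptor that carries cargo in both directions, read 8.37, 7.60, 7.98 and 8.35 in LMW, 7.82, 7.36, 7.29 and 7.28 in HMW, and 6.40, 6.66, 6.90 and 6.91 in Total. XPO6, the exportin of profilin-actin, read 11.08, 10.32, 10.25 and 10.27 in LMW, 10.57, 9.91, 9.70 and 9.50 in HMW, and 9.37, 9.27, 9.35 and 9.25 in Total. Both mRNAs were therefore above Total in either pool and somewhat higher in the light one. The differences were -0.64 (SE 0.165, limma adjusted p = 0.021) for IPO13 and -0.56 (SE 0.125, limma adjusted p = 0.0129) for XPO6.

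**Figure D1:**
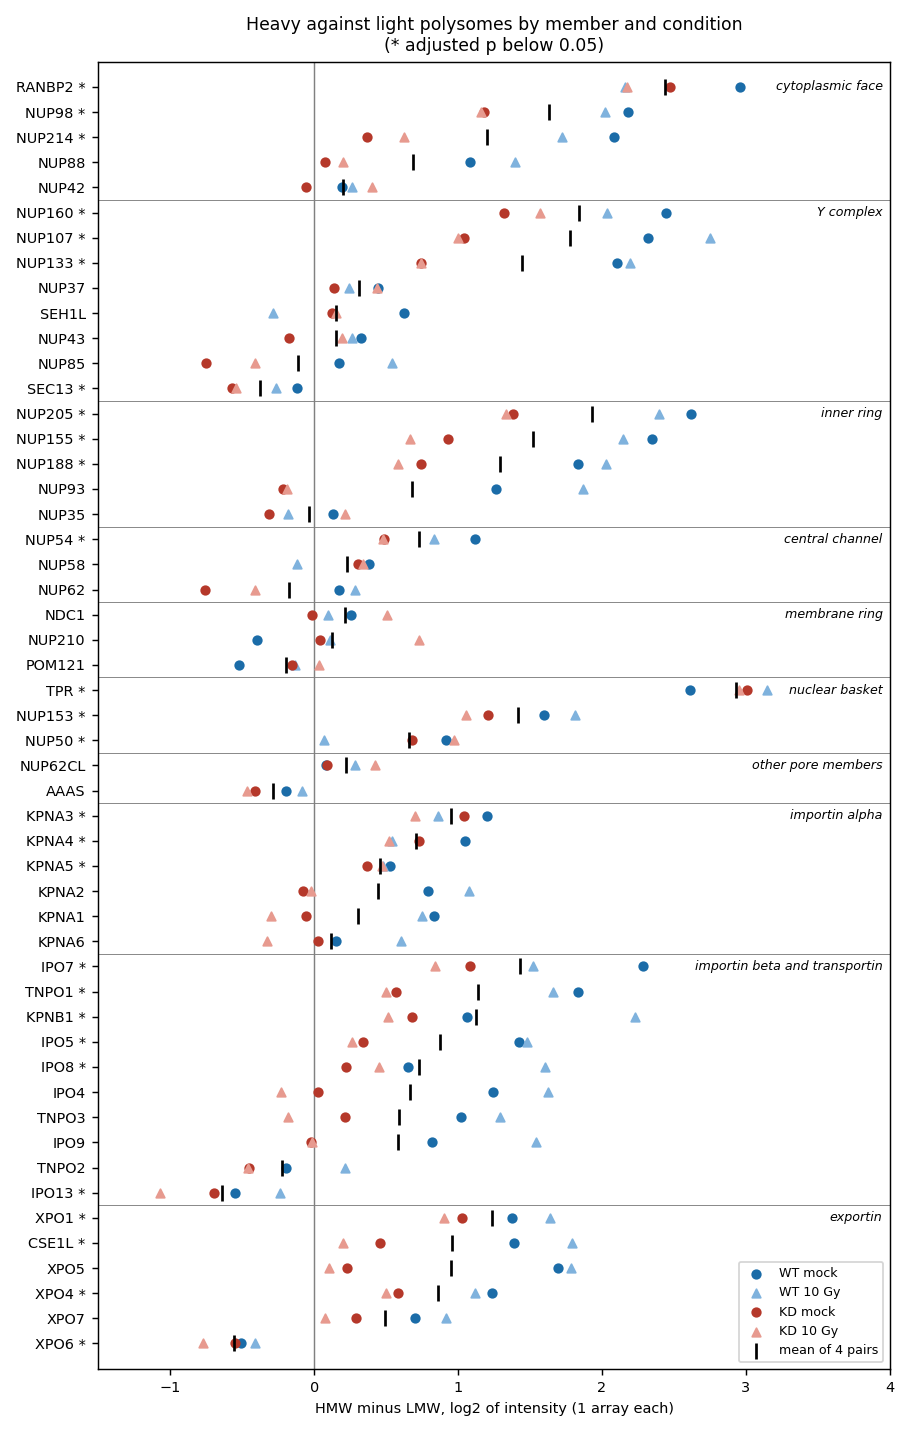
HMW minus LMW (log2 of intensity, horizontal axis) for the 51 members tested, grouped by role. Each point is 1 pair of arrays, blue for WT and red for the knockdown, with circles for mock and triangles for 10 Gy, and the bar is the mean of the 4 pairs. TPR (2.93) and RANBP2 (2.44) have the largest means, and in 37 members both blue points lie right of both red ones.

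Each pool was also compared with Total, which shows where an mRNA was high relative to the whole cell. Against Total, 26 members were higher in HMW (17.4% of all genes) and 2 were lower (18.6% of all genes), with a median of 0.55 over the members and 0.03 over all genes. In LMW, 9 members were higher (28.5% of all genes) and 11 lower (28.1% of all genes), with medians of -0.13 and 0.01. HMW and Total did not overlap for 27 members (34.9% of all genes), with HMW above in 26, and LMW and Total for 17 (49.3%), with LMW above in 9. All 5 inner ring members and 6 of 8 Y complex members were higher in HMW than in Total. Without the WT 10 Gy pair 18 members were called in HMW against Total, and without the WT mock pair 13 in LMW against Total. The shares of all genes without those pairs are not given here. The single fit over all 12 arrays called 31 members in each (46.9% and 72.1% of all genes). Among other probe sets of called members past the filter, 24 of 27 had the same sign in HMW against Total. Those of the opposite sign were of IPO9, NUP160 and NUP50. In LMW against Total 20 of 21 had the same sign, and a probe set of NUP58 did not. Centring each array on its median moved LMW against Total by 0.16 and the members' median from -0.13 to 0.03, so the sign of that median is not settled.

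IPO4, an importin for histones and ribosomal proteins, had the largest positive mean difference from Total among the members in both pools. It read 7.83, 7.48, 8.08 and 7.57 in Total, 9.78, 8.24, 9.82 and 9.73 in LMW, and 11.03, 9.86, 9.84 and 9.50 in HMW. All 8 pool arrays were above all 4 Total arrays. The difference from Total was 2.32 in HMW (SE 0.256, 4.99-fold, limma adjusted p = 0.0013) and 1.65 in LMW (SE 0.28, limma adjusted p = 0.00274), each in 4 of 4 pairs.

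NUP188, an inner ring scaffold, read 7.84, 7.51, 7.74 and 7.55 in Total, 8.28, 6.74, 8.71 and 8.58 in LMW, and 10.11, 8.77, 9.45 and 9.16 in HMW. NUP93, which links the inner ring to the channel, read 9.36, 9.16, 9.20 and 9.01 in Total, 10.05, 9.28, 10.43 and 10.24 in LMW, and 11.32, 11.14, 10.21 and 10.05 in HMW. In both, the HMW arrays lay above the Total arrays without overlap. HMW exceeded Total by 1.71 for NUP188 (SE 0.209, limma adjusted p = 0.00156) and by 1.50 for NUP93 (SE 0.222, limma adjusted p = 0.00268).

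NUP85, a Y complex arm protein, read 9.80, 9.48, 9.30 and 8.94 in Total, 11.09, 10.14, 10.79 and 10.20 in LMW, and 11.27, 10.69, 10.04 and 9.79 in HMW. LMW was above Total by 1.18 (SE 0.225, limma adjusted p = 0.00405). NUP62, the central channel protein, read 9.57, 9.30, 9.09 and 8.66 in Total, 10.67, 9.96, 10.17 and 9.71 in LMW, and 10.84, 10.25, 9.41 and 9.30 in HMW. It was above Total in both pools, by 0.98 in LMW and 0.80 in HMW, both called. AAAS, the protein lost in triple A syndrome, read 6.79, 6.65, 6.44 and 6.76 in Total, 7.93, 7.18, 7.52 and 7.40 in LMW and 7.74, 7.10, 7.11 and 6.94 in HMW, and was called higher in both pools. For IPO13 and XPO6, LMW exceeded Total by 1.36 (SE 0.236) and 1.17 (SE 0.228).

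At the other end, LMW was below Total by 3.02 for TPR (SE 0.369, 8.14-fold, limma adjusted p = 0.00113) and by 2.66 for RANBP2 (SE 0.373, limma adjusted p = 0.00159). HMW and Total of these members overlapped, and the differences of -0.09 and -0.22 were not called. The means hide a split by genotype: HMW was below Total in both WT pairs (-1.55 and -0.45 for TPR, -1.09 and -0.67 for RANBP2) and above it in both knockdown pairs (0.67 and 0.96, and 0.50 and 0.39). IPO7, an importin of ribosomal proteins and of signalling kinases, was likewise lower in LMW, by 1.43. XPO1, the main exportin of proteins with a leucine-rich signal, was lower there by 1.09. Their mean differences of HMW from Total (0.00 and 0.14) hide a split by condition. In WT mock HMW was below Total (10.56 against 11.22 for IPO7, 11.23 against 11.93 for XPO1), and in each other condition above it. In LMW, IPO7 read 8.27 in WT mock and 9.88 to 10.19 in the other conditions, and XPO1 9.86 and 10.48 to 10.61.

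Only 2 members were lower in HMW than in Total. KPNA5, an importin alpha, read 6.52, 6.27, 6.81 and 6.94 in Total but 4.42, 5.19, 5.31 and 5.56 in LMW and 4.95, 5.67, 5.68 and 6.03 in HMW. It passed the filter through its Total arrays, so its lower pools are a description and support nothing. NUP50, the basket protein that helps release importin alpha, read 10.11, 9.75, 9.65 and 9.38 in Total, 7.93, 9.35, 8.52 and 7.84 in LMW, and 8.85, 9.43, 9.20 and 8.81 in HMW. Its LMW arrays lay below Total, by 1.31 on average (SE 0.306, limma adjusted p = 0.0082). HMW overlapped Total, its difference was -0.65 (SE 0.203, limma adjusted p = 0.0388), and the median of all NUP50 probe sets gave 0.0054. NUP58 of the central channel had a lower mean difference (-0.74, SE 0.255) that was not called (limma adjusted p = 0.0532). It read 8.96, 8.48, 8.37 and 8.20 in Total, 7.51, 8.80, 7.16 and 6.68 in LMW and 7.88, 8.67, 7.47 and 7.02 in HMW, with the WT 10 Gy pools apart from the other 3 conditions.

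**Figure D2:**
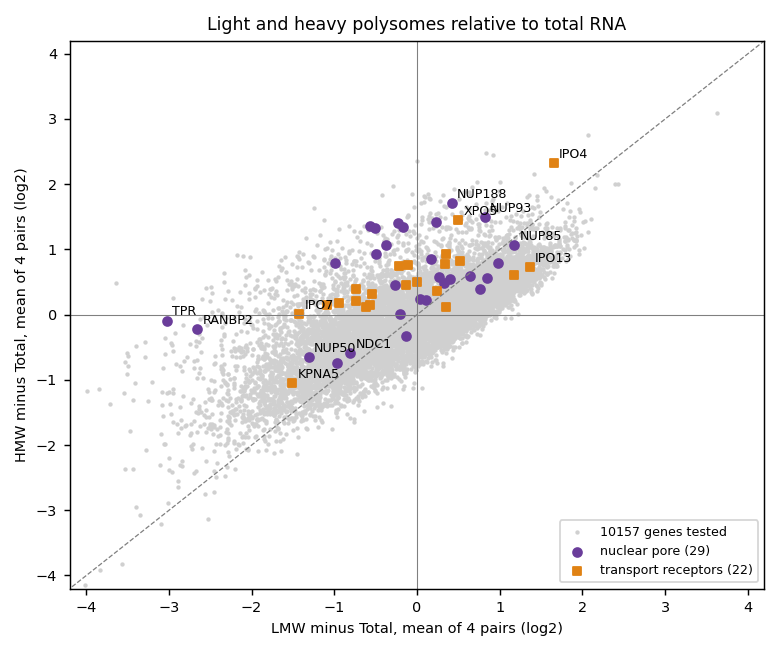
LMW minus Total (horizontal axis) and HMW minus Total (vertical axis), each the mean of 4 pairs on the log2 scale. Grey dots are the 10157 genes tested, circles the 29 pore members and squares the 22 receptors, and on the dashed diagonal the pools are equal. Of the members, 42 lie above the diagonal, TPR and RANBP2 at the far left and IPO4 at the top right.

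The knockdown was compared with WT in total RNA over 2 pairs, mock and 10 Gy, in an additive fit of genotype and dose. Of the 51 members, 18 were lower in the knockdown (19.8% of all genes) and 6 higher (20.7% of all genes). The median difference was -0.15 over the members and 0.03 over all genes. POM121 reached the filter level in WT arrays only, so a lower value of it in any knockdown comparison supports nothing. The lower ones were mostly pore members, 12 of 29, against 1 of 29 higher, while receptors split into 6 lower and 5 higher of 22. Those 12 and 18 include NUP62CL, which passed the filter through WT arrays alone, so its place in the counts supports nothing. All 3 basket members, 4 of 8 of the Y complex and 2 of 3 of the central channel were lower. These calls rest on 1 residual degree of freedom. In the single fit over all 12 arrays 240 genes (2.36%) but 0 members were called in Total, with 7 members at an unadjusted p below 0.05 (14.7% of all genes) and a lowest limma adjusted p of 0.0523.

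NDC1, a membrane ring protein, read 10.29, 10.16, 8.35 and 8.09 in Total, and so stood lower in both knockdown arrays. It fell by 2.01 on the log2 scale (SE 0.102, 4.02-fold, limma adjusted p = 2.26e-06). In LMW it read 8.78, 9.44, 8.27 and 7.16 and in HMW 9.03, 9.54, 8.26 and 7.67. The only other NDC1 probe set fell by 0.23 in Total, so the size depends on the probe set.

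KPNA2, the importin alpha of proliferating cells, read 12.03, 12.17, 11.29 and 10.87 in Total, 11.99, 11.98, 12.18 and 11.56 in LMW, and 12.78, 13.06, 12.11 and 11.54 in HMW. Total and HMW were lower in the knockdown and LMW overlapped. The fall in Total was -1.02 (SE 0.115, limma adjusted p = 0.00012), and -0.82 by its other probe set. NUP62CL, a NUP62-like gene near the filter level, read 6.37, 6.12, 5.74 and 5.08 in Total, 5.36, 6.68, 5.13 and 5.32 in LMW and 5.45, 6.96, 5.22 and 5.75 in HMW. Its difference in Total was -0.83 (SE 0.181, limma adjusted p = 0.00493). All 4 of its arrays past the filter level were WT, so its lower value in the knockdown supports nothing.

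KPNB1, the importin beta that pairs with importin alpha, and XPO1 were lower by 0.56 and 0.63 on the log2 scale. KPNB1 read 12.01, 11.74, 11.41 and 11.21 in Total, 10.02, 10.07, 11.25 and 11.24 in LMW, and 11.09, 12.31, 11.93 and 11.75 in HMW. The knockdown was thus lower in Total and higher in LMW. CSE1L, which returns importin alpha to the cytoplasm, did the same: 12.26, 12.14, 11.93 and 11.86 in Total, 11.25, 11.44, 12.27 and 12.36 in LMW, and 12.64, 13.24, 12.73 and 12.56 in HMW. It fell by 0.30 in Total (SE 0.0668, limma adjusted p = 0.00528) and was higher by 0.97 in LMW (SE 0.288, limma adjusted p = 0.00936).

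The 6 higher members were KPNA5, KPNA4, XPO5, NUP88, TNPO3 and TNPO1. KPNA5 rose by 0.48 (SE 0.144, limma adjusted p = 0.0241). KPNA4, another importin alpha, read 10.43, 10.38, 10.84 and 10.89 in Total, 8.90, 10.49, 10.46 and 10.42 in LMW, and 9.95, 11.04, 11.18 and 10.94 in HMW, and its Total difference was 0.46 (SE 0.0868, limma adjusted p = 0.00242). In its pools the WT mock array stood lower than the other 3. XPO5, the exportin of miRNA precursors, read 8.70, 8.43, 9.14 and 8.88 in Total, 9.28, 8.25, 9.90 and 9.68 in LMW, and 10.98, 10.04, 10.13 and 9.78 in HMW, with a Total difference of 0.45 (SE 0.102, limma adjusted p = 0.00647). Its 2 other probe sets past the filter gave 0.46 and 0.78. TNPO1, which carries RNA-binding proteins inwards, was higher by 0.26 (SE 0.0759, limma adjusted p = 0.021). Of its other probe sets past the filter 1 gave -0.01 and the rest 0.18 to 0.34.

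Promoters of the members, grouped by their call in the knockdown in Total, were read in RefSeq (GRCh38.p14). The window was the 250 bases before the first start site listed for a gene, which 46 of the 51 members had. KPNA2 and NDC1, the most lowered pair with a window, and XPO5, a raised one, are shown with matches in capitals. The motifs searched on both strands were TTTGAA, the core of the cell cycle genes homology region (CHR) of many mitotic genes, CCAAT, the box bound by NF-Y, and the E2F forms TTTCCCGC and TTTGGCGC.
KPNA2, chr17:68035485-68035734, plus strand: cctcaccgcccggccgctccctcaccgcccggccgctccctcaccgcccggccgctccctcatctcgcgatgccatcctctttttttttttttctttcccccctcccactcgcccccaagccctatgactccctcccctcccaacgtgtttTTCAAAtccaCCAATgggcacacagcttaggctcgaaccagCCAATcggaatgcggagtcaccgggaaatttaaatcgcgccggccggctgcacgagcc
NDC1, chr1:53838297-53838546, minus strand: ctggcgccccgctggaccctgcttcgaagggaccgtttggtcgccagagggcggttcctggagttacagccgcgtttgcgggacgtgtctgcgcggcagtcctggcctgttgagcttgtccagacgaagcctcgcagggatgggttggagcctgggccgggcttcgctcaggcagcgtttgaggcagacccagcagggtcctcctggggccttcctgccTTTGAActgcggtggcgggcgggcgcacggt
XPO5, chr6:43576039-43576288, minus strand: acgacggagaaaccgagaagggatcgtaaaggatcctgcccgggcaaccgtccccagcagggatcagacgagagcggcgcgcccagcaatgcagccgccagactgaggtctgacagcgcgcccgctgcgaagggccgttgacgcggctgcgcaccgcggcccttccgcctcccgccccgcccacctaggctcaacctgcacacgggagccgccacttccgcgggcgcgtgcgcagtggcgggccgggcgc

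KPNA2 holds a CHR core on the complementary strand with a pair of CCAAT boxes nearer the start, NDC1 a CHR core alone, and XPO5 none of these letters. The CHR core was in the windows of 6 of 16 members lower in the knockdown in Total (37.5%): IPO7, KPNA2, NDC1, NUP153, NUP205 and NUP37. It was in 0 of 4 higher members and in 2 of 26 members not called (7.69%), against 13.6% of all 27305 windows. The set of all windows was not limited to the genes tested here, so the members are compared with an unlike, wider set. CCAAT was in 9 of the 16, 2 of the 4 and 10 of the 26, against 33.0% of all windows. Both the 16 and the 9 include NUP62CL, whose lower value supports nothing. The E2F forms were in 0 of the 46, against 1.96% of all. These are counts of letters, not of binding, and were not tested.

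Between the pools, the knockdown narrowed the difference of many members. HMW minus LMW was larger in both WT pairs than in both knockdown pairs for 37 of 51 members (31.9% of all genes) and smaller in both for 0 (26.2% of all genes). Over the members the median HMW minus LMW was 1.02 and 1.07 in WT (mock and 10 Gy) and 0.23 and 0.42 in the knockdown. In the fit to these differences, an analysis added after the data had been seen, 22 members were lower in the knockdown (10.5% of all genes) and 0 higher (5.33% of all genes), with a median change of -0.63 over the members and -0.01 over all genes. By role these were 4 of 5 of the inner ring, 3 of 5 of the cytoplasmic face, 3 of 8 of the Y complex, 1 of 3 of the central channel, 2 of 6 importin alpha, 7 of 10 importin beta and transportin, and 2 of 6 exportin mRNAs. All 22 receptors tested had a value below 0, and 0 members of the basket or membrane ring were called. Counts by sign depend on the scaling: 7 of the 51 members were above 0, and 12 after centring of the arrays. The single fit over all 12 arrays called 0 genes here, members or others, with 23 members at an unadjusted p below 0.05 (16.3% of all genes) and a lowest limma adjusted p of 0.0924.

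The largest change was that of NUP93, by -1.77 (SE 0.243, -1.48 and -2.06 in the mock and 10 Gy pairs, limma adjusted p = 1.87e-05). Its HMW minus LMW was 1.26 and 1.87 in WT and -0.21 and -0.19 in the knockdown. XPO5 changed by -1.58 (SE 0.256), IPO4 by -1.54 (SE 0.263), NUP107 by -1.51 (SE 0.27) and CSE1L by -1.26 (SE 0.171). The 2 other XPO5 probe sets past the filter gave -1.75 and -1.78, and those of CSE1L -1.15 and -1.36.

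NUP107, a core Y complex protein, shows the pattern in its levels. It read 7.93, 7.94, 9.16 and 8.88 in LMW and 10.25, 10.69, 10.20 and 9.88 in HMW, and 9.79, 9.62, 9.32 and 9.13 in Total. Both WT LMW arrays stood below both knockdown ones, while HMW overlapped between genotypes. TPR and RANBP2 were not called here, at 0.10 and -0.24. Another TPR probe set past the filter gave -1.37, so TPR is not settled between its probe sets.

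**Figure D3:**
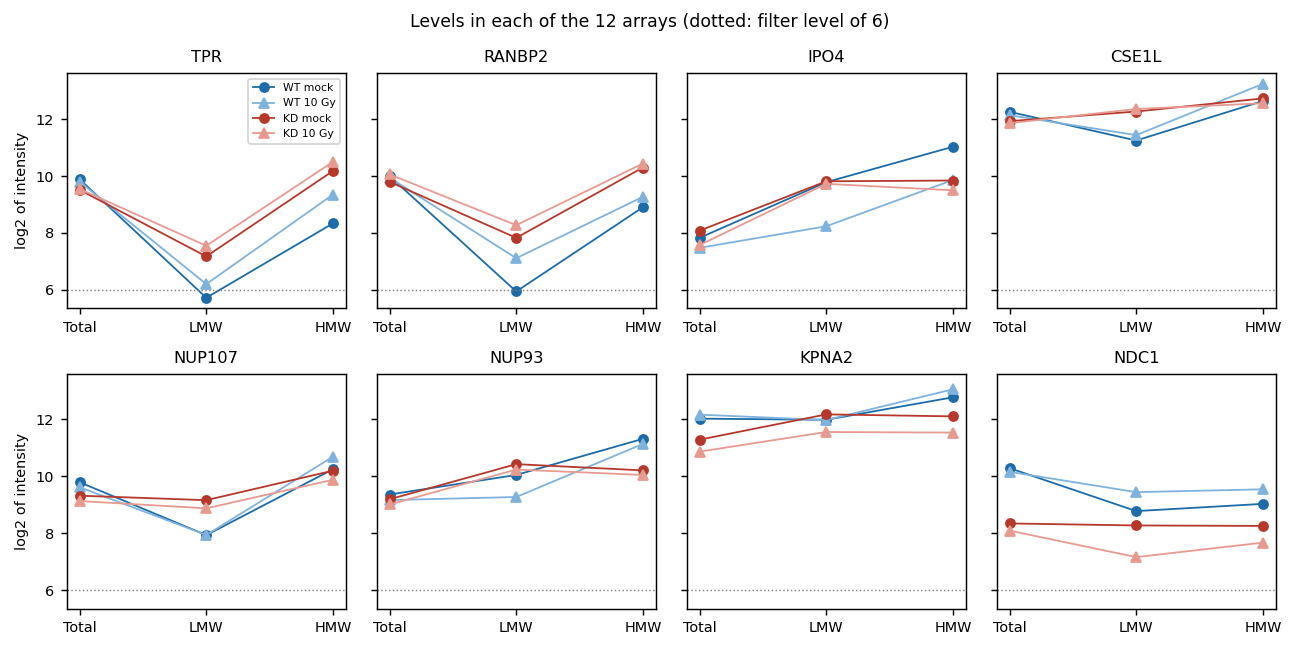
Log2 intensity of 8 members in Total, LMW and HMW, with 1 line for each condition and a dotted line at the filter level of 6. In TPR and RANBP2 all lines dip at LMW and the knockdown lines end above the WT lines, while in CSE1L and NUP93 the WT lines climb from LMW to HMW and the knockdown lines change by less.

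Within LMW alone, 10 members were higher in the knockdown (10.3% of all genes) and 2 lower (5.1% of all genes), with a median of 0.44. The higher ones were RANBP2 (1.52), NUP214 (1.16) and NUP88 (1.34) of the cytoplasmic face, NUP155 (1.46) of the inner ring, TPR (1.40), KPNA1 (1.21), KPNB1 (1.19), TNPO1 (1.76), TNPO3 (1.28) and CSE1L (0.97). NDC1 (-1.40) and NUP58 (-1.23) were the lower ones, and both rest mostly on 10 Gy: the mock and 10 Gy pairs gave -0.51 and -2.28 for NDC1 and -0.34 and -2.12 for NUP58. Within HMW alone, 2 members were higher (5.82% of all genes), TPR (1.50) and RANBP2 (1.28), and 5 lower (4.09% of all genes): NDC1 (-1.32), NUP62 (-1.19), NUP93 (-1.10), KPNA2 (-1.10) and NUP85 (-1.06). The median over the members was -0.37. Here the mock and 10 Gy pairs gave -0.77 and -1.88 for NDC1 and -0.67 and -1.52 for KPNA2. In both fits limma pooled the spread completely over genes of like level, so a gene's own spread does not enter its p. In the single fit over all 12 arrays 17 members were called in LMW (22.9% of all genes) and 6 in HMW (9.28% of all genes). NUP58 in LMW (limma adjusted p = 0.083) and NDC1 in HMW (limma adjusted p = 0.0874) were not among them. Leaving out an LMW array from that fit gave 4 calls without the WT 10 Gy or the knockdown 10 Gy array, and leaving out an HMW array gave 0 calls without either mock array and 1 without either 10 Gy array. Those are counts of members, and the shares of all genes are not given for them.

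Markers of other cell types and of the line itself moved with the genotype too. In LMW 5 of 6 markers of the basal list, EPCAM and CDH1 among them, were higher in the knockdown. So were 2 of 4 luminal markers (KRT8 and KRT18) and 2 of 3 fibroblast ones (COL1A1 and DCN). The medians were 2.03, 0.905 and 2.03. COL1A2, COL3A1, PGR and KRT19 stayed below 5 on every array. In Total 4 basal markers were higher and 2 lower, 2 luminal ones higher, and of the fibroblast ones 1 each. In HMW minus LMW, 5 of 6 basal, 2 of 4 luminal and 1 of 3 fibroblast markers were lower in the knockdown, with a basal median of -1.17, so the members were not alone in this change. Their part in the members' differences was not tested.

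HMW set against Total gave fewer calls. Among the 51 protein-coding members tested, the knockdown raised this difference in 2 (3.97% of all genes) and lowered it in 0 (0.492% of all genes). The non-coding NUP50-DT, which was called lower, is described further below. TPR changed by 1.81 (2.22 and 1.41 in its pairs, SE 0.437, limma adjusted p = 0.00181) and RANBP2 by 1.33 (1.59 and 1.06, SE 0.426, limma adjusted p = 0.044). In Total TPR was lower by 0.31 on the log2 scale, which was called, and RANBP2 differed by -0.04, which was not. Their other probe sets past the filter gave 1.97 for TPR and 1.08 to 1.53 for RANBP2. Here too the spread was pooled completely, and the single fit over all 12 arrays called 0 members and 40 genes in all (0.394%), with a lowest limma adjusted p of 0.0821 for a member.

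**Figure D4:**
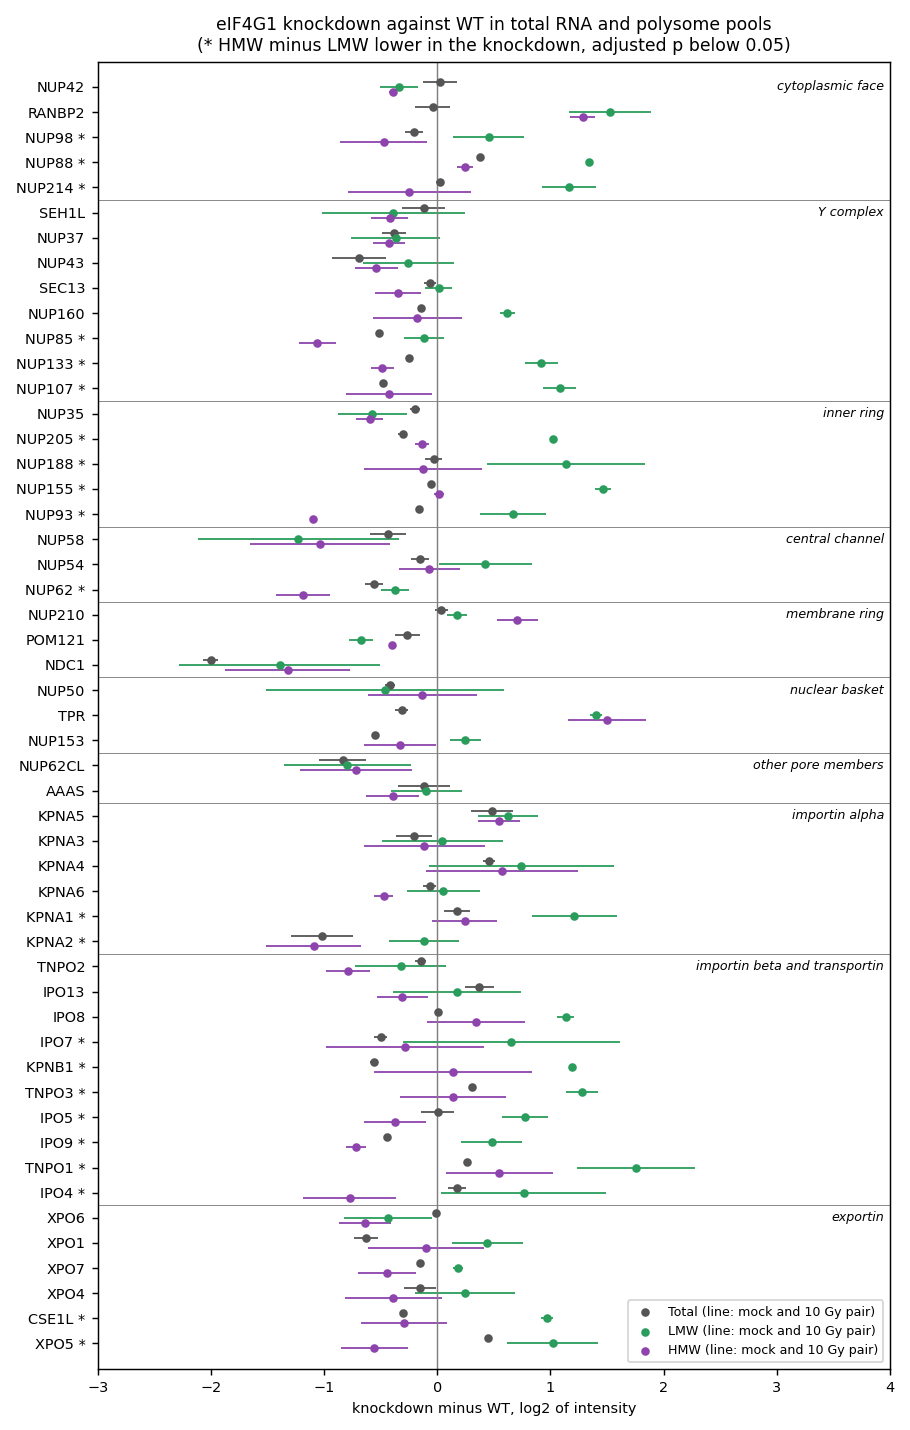
Knockdown minus WT (log2 of intensity, horizontal axis) for the 51 members, grouped by role. Points are means in Total (grey), LMW (green) and HMW (purple), and each line joins the mock and the 10 Gy pair. Stars mark the 22 members whose HMW minus LMW was lower in the knockdown, where green points lie right of purple ones.

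Irradiation with 10 Gy was tested across both genotypes in each preparation. In each of Total, LMW and HMW limma called 0 members, where 0.177%, 0.374% and 0.473% of all genes were called in either direction. At an unadjusted p below 0.05 there were 15 members in Total (12.8% of all genes), 1 in LMW (7.86%) and 4 in HMW (8.39%), and the single fit over all 12 arrays also called 0. In Total 47 of 51 members had a value below 0, with a median of -0.14 over the members and -0.03 over all genes. After centring of the arrays 10 of 51 were above 0. For HMW minus Total, 1 member was called (0.276% of all genes), NUP62CL, at 1.47 (1.76 in WT and 1.19 in the knockdown, SE 0.327, limma adjusted p = 0.0088). It passed the filter through WT arrays alone, with pools past the level only at 10 Gy, and its knockdown pair lies below the level, so this call supports nothing. No member was called at a filter of 7.

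Within a genotype the response compares 1 array with 1 and has no test, so members at or beyond 2-fold were counted. In WT LMW 8 members were up and 3 down (20.1% of all genes), and in WT HMW 6 up and 3 down (18% of all genes). In the knockdown there was 1 in LMW (1.33% of all genes), NDC1 at -1.11, and 0 in HMW (0.847% of all genes). Total had 0 in WT (0.0886% of all genes) and 0 in the knockdown (0.965% of all genes). The WT mock pools thus differ from the WT 10 Gy pools about as often in members as in other genes. Over all genes, the standard deviation of HMW minus Total was 1.11 in WT mock and 0.662 to 0.701 in the other conditions. That of LMW minus Total was 1.42 and 0.946 to 0.968. WT mock thus stood apart from the unirradiated knockdown too, and how far its pools set the WT response was not tested.

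In WT LMW the members up were IPO7 (1.91), KPNA4 (1.60), NUP50 (1.42), NUP62CL (1.31), NUP58 (1.29), KPNA3 (1.20), RANBP2 (1.17) and TNPO1 (1.07), and those down were IPO4 (-1.55), NUP188 (-1.53) and XPO5 (-1.03). In WT HMW those up were NUP62CL (1.51), KPNB1 (1.22), IPO7 (1.15), KPNA4 (1.09), IPO8 (1.09) and TPR (1.01), and those down NUP188 (-1.34), IPO4 (-1.17) and NUP160 (-1.06). IPO7 and KPNA4 were up, and IPO4 and NUP188 down, in both pools of the WT cells. NUP62CL was up in both too, but its pools passed the filter level only in WT at 10 Gy. Its place in these lists and in the counts above therefore supports nothing. The same WT mock arrays also enter the knockdown comparisons above.

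**Figure D5:**
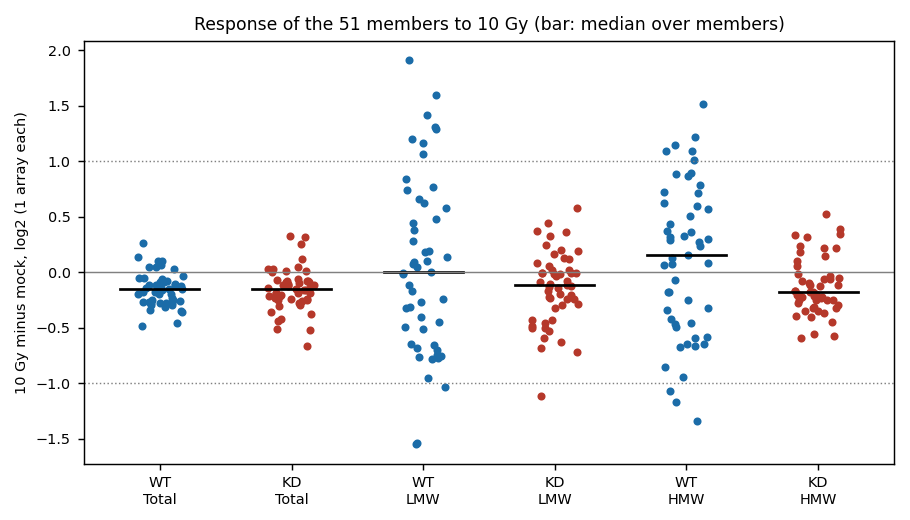
10 Gy minus mock (log2 of intensity) for the 51 members in each genotype and preparation, 1 point for each member, with the median as a bar and dotted lines at 2-fold. WT LMW and WT HMW spread widest, from -1.55 to 1.91 and from -1.34 to 1.51, while Total and the knockdown pools stay narrow. The 1.51 is NUP62CL, whose pools passed the filter level only in WT at 10 Gy.

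Of related genes that are not members, the Ran cycle (6 tested) had 0 higher and 1 lower in HMW against LMW, and a value below 0 in 6 of 6. In the knockdown in Total, RANBP1, which aids GTP hydrolysis by Ran, was lower by 0.46 on the log2 scale, RAN was lower by 0.24 and RANGRF was higher by 0.60. Of 13 mRNA export genes, 2 were higher and 4 lower in HMW against LMW: THOC2 (2.84) and THOC1 (1.08) at the top, THOC6 (-1.03) and NXT1 (-0.81) at the bottom. Of 12 lamina and envelope genes, 4 were higher and 1 lower, with AHCTF1, which seeds pores on chromatin, at 2.37. In the knockdown in Total, 7 of those 12 were lower and 3 higher, LMNB1 by -1.91 and TMPO by -1.11 at the bottom. In the knockdown's HMW minus LMW, LMNA (-1.79) was the lowest of them.

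The non-coding NUP50-DT, which starts beside NUP50 in the opposite direction, was the only non-coding member past the filter. It read 6.36, 6.27, 7.63 and 7.56 in Total, 6.79, 6.22, 6.40 and 6.38 in LMW and 6.05, 5.69, 5.74 and 6.20 in HMW. Only its knockdown Total arrays stood out. It rose by 1.27 in Total (limma adjusted p = 4.85e-05), with -0.12 in LMW and 0.10 in HMW, and its HMW minus Total changed by -1.17 (SE 0.374, limma adjusted p = 0.0414). NUP50 itself fell in Total, by 0.42.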

How the data were processed

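Total RNA or polysome pools from sucrose gradients were labelled as cRNA with a 3' in vitro transcription kit and hybridised, per the labels' protocols. The authors deposited probe set intensity values on a linear scale, made with RMA per the submitters' processing notes. The sources used here do not give its version or say whether it was run on the 12 arrays at once. They were turned to log2. Only probe sets with 1 symbol were used. Tests used limma 3.58.1 in R 4.3.3 (eBayes with a trend, Benjamini-Hochberg at 0.05). Fractions were fitted with the condition as a block (3 residual degrees of freedom), and knockdown and dose additively (1 residual degree). For differences between preparations the variance trend followed the mean level. The scripts were tested on simulated data. Number and depth of arrays limit the precision. Members, lists and tests were chosen with earlier results of these data known. All members may be named. Values in every array are given for the 3 highest and 3 lowest members of each fraction comparison and of the knockdown in Total, and for the member of each role with the highest mean. NUP107, an example of the narrowed HMW minus LMW difference, and the non-coding NUP50-DT are shown outside this rule. Other lists give up to the 2 highest and 2 lowest genes. Coding length was not used here. Alternatives were other filters, probe sets, scalings and variance priors, no block, 12 arrays in 1 fit, and samples left out.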

Additional observations from a re-analysis of the deposited data

Results flagged for a closer look

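Differences between the effect in heavy polysomes and that in total RNA passed the test for the difference itself in 4 members. Of all genes, 3.97% were called higher and 0.492% lower for the knockdown, and 0.276% in either direction for 10 Gy. The count is therefore not a result about the members as a group. The knockdown effect was higher in HMW than in Total by 1.81 for TPR and by 1.33 for RANBP2, and lower by -1.17 for the non-coding NUP50-DT. The 10 Gy effect was higher in HMW than in Total by 1.47 for NUP62CL, which passed the filter only through WT arrays, in the pools only at 10 Gy, so that its value supports nothing. All 4 values are on the log2 scale, had the same sign in both pairs, and were not called in the single fit over all 12 arrays.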

How the results depend on the processing

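Counts below are members called. The shares of all genes under each change are not given, so the counts do not set members apart from other genes. Most depended on how the spread was estimated. HMW against LMW (27) gave 4 without the condition block and 13 to 24 with a condition left out, HMW against Total (28) 18 to 35 and 18 without probe sets marked _x_at or _s_at, and LMW against Total (20) 31 in the single fit over all 12 arrays and 13 to 17. The knockdown in Total (24) gave 0 in the single fit, also with an array left out. The knockdown in LMW (12) gave 6 without a filter, 5 with the median of all probe sets, 2 without the marked probe sets, 7 with centred arrays and 4 to 15 with an array left out of the single fit. The knockdown in HMW (7) gave 4 with the median, 2 without the marked probe sets, 4 without a variance trend and 0 to 1 with an array left out. For the knockdown in HMW minus Total (2) it was 0 with the median, without the marked probe sets, in the single fit and with an array left out, 1 with centred arrays, and 22 with LMW in place of Total. The 10 Gy call in HMW minus Total (1) fell to 0 at a filter of 7, with the median, without the marked probe sets, without a trend, with centring or loess, in the single fit, with an array left out, and with LMW in place of Total. The knockdown in HMW minus LMW (22), whose alternatives were added after the data were seen, gave 12 with the median, 13 without the marked probe sets and 0 in the single fit, also with an array left out. NUP50 in HMW against Total turned to 0.0054 with the median, and RANBP2's knockdown change to -0.24 with LMW in place of Total. TNPO1 turned sign in the knockdown in Total without the marked probe sets, and NUP153, NUP160 and IPO9 in a fraction comparison with the median. Other causes were not tested. The fraction comparisons are paired by condition, and the knockdown and dose fits by the other factor. The coding length comparison was not run.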
